A study of Mus musculus with 2 samples.

Results

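CD8 T cells were found in both single-cell libraries of a neutrophil sort, 106 in the Smad3-KO library and 18 in the Smad3-WT library, or 124 of 6630 barcodes. A barcode was taken as a CD8 T cell when it held at least 200 genes, more than 500 UMIs and under 10% mitochondrial UMIs, at least 1 UMI of the CD3 genes Cd3e, Cd3d and Cd3g, and at least 3 UMIs of these genes and the T cell receptor constant genes Trac, Trbc1 and Trbc2 together. It also needed at least 1 UMI of Cd8a or Cd8b1, none of the B cell genes Cd79a and Ms4a1, fewer than 3 of C1qa, C1qb and C1qc, under 1% of UMIs from S100a8 and S100a9, and fewer than 3 of Krt8, Krt18 and Rhox5. T cells that met every limit but held no UMI of Cd8a or Cd8b1 are called CD8-zero T cells here, and numbered 267 in the Smad3-KO and 17 in the Smad3-WT library. A UMI is a molecular tag that marks 1 captured transcript.

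The libraries came from C57BL/6 mice aged 8 to 12 weeks that bore subcutaneous tumors of LLC, a mouse lung carcinoma line. Smad3-KO mice carry, in every cell, a Smad3 allele with damage in late exons, and Smad3-WT mice carry the intact gene. From 8 pooled tumors per genotype, CD11b+Ly6G+ cells were sorted as tumor-associated neutrophils and 1 library was made per genotype with a 5′ kit, so that Smad3 UMIs check nothing about the genotype. T cells are not known to carry Ly6G, and this sort would not be set to collect them.

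CD8 T cells recognize peptides on MHC class I through the T cell receptor, a pair of α and β chains held by the CD3 chains, and CD8 is the coreceptor that binds class I itself. Naive and central memory cells carry the homing receptor CCR7 and the transcription factors TCF1 (Tcf7) and LEF1, and circulate through lymph nodes. Effector cells make granules of perforin and granzymes and release chemokines such as CCL5, and cells under long stimulation in tumors display inhibitory receptors such as PD-1 (Pdcd1), LAG-3 and TIGIT.

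Depth differed between the libraries, with 4214290 UMIs over 2514 barcodes for Smad3-KO and 23951400 over 4116 for Smad3-WT. Of these, 2433 and 3902 barcodes passed the limits on quality, with medians of 1199 and 1770.5 UMIs. The libraries shared 73 barcode sequences, among them 1 of the 106 and 1 of the 18 CD8 T cells. Xist, the RNA of the inactive X chromosome, was at 471 CPM (UMIs of a gene scaled to a total of 1e6) in the cells of the Smad3-KO library and at 0.340 CPM in those of the Smad3-WT library, and mice of both sexes were used in the study, so genotype, library and sex of the mice cannot be told apart. With 1 library per genotype there is no replicate error, cells are not replicates, and no test was made. Intervals are exact at the 95% level and cover counting error only.

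CD8 T cells made up 4.36% (3.58% to 5.25%) of the passing Smad3-KO cells and 0.461% (0.274% to 0.728%) of the passing Smad3-WT cells. The Smad3-KO CD8 T cells held 258255 UMIs in all, from 610 to 18606 per cell with a median of 1846.5, and a median of 774 genes. The 267 CD8-zero T cells of that library held 410171 UMIs, with a median of 1289 per cell. The 18 Smad3-WT CD8 T cells were deeper, with 112009 UMIs and a median of 4806.5 per cell. Shares of cells with a UMI therefore cannot be read as levels across these sets at full depth. Some shares, as those of Nkg7, Ighm and the cytotoxic UMIs, are given below also after each cell was thinned to 500 UMIs. The others stand at full depth only and are descriptions.

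The genes of the rule are described and not tested, since the cells were chosen by these UMIs. In the Smad3-KO library 53 of 106 CD8 T cells held both chains of the coreceptor, 22 held only Cd8a and 31 only Cd8b1. Cd8a was at 596 CPM (506 to 698) and Cd8b1 at 666 CPM (570 to 773). For comparison, B cells of that library were passing barcodes with at least 3 UMIs of Cd79a, Cd79b and Ms4a1 and fewer than 3 of C1qa, C1qb and C1qc. Neutrophils had at least 5% of UMIs from S100a8 and S100a9 and none of those B cell genes. Both sets were chosen to hold no UMI of the CD3 and T cell receptor constant genes. Among these cells, which should lack CD8, Cd8b1 was found in 0.430% of 465 B cells, with a median of 1309 UMIs per cell. It was found in 0 of 537 neutrophils, with a median of 1041, which allows up to 0.685% of cells with a captured UMI by the exact interval. Cd8a was found in 0.430% of these B cells and 0.186% of these neutrophils. In the Smad3-WT library 12 of 18 cells held both chains. Cd3e was at 956 CPM in Smad3-KO CD8 T cells, 1202 CPM in CD8-zero T cells and 1143 CPM in Smad3-WT CD8 T cells, and Trac was at 256, 346 and 277 CPM. Since these genes chose the cells in both libraries, nothing is read from their levels. Cd4, the other coreceptor, was found in 5 of 106 Smad3-KO and 0 of 18 Smad3-WT CD8 T cells, against 63 of 267 CD8-zero T cells.

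Near the limits of the rule, 31 Smad3-KO CD8 T cells rested on 1 CD8 UMI. Their Nkg7, a protein of cytotoxic granules, was at 325 CPM, against 557 CPM in the 75 cells with at least 2 CD8 UMIs and 107 CPM in the 267 with none. The 8 cells with a T cell receptor sum of 3, just inside, held Lef1 at 506 CPM and Nkg7 at 203 CPM. The 9 cells with a sum of 2, just outside, held 385 CPM of each. Ccl5 had 0 UMIs in both of these small sets.

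Several defining genes of γδ T, regulatory T and natural killer cells had no UMI in the Smad3-KO CD8 T cells, while other genes of the natural killer list were present. The γδ T cell genes Trdc, Tcrg-C1, Tcrg-C2 and Tcrg-C4 had 0 UMIs in the 106 cells, and 10, 2, 2 and 2 UMIs in the CD8-zero T cells. The natural killer receptor genes Ncr1, Klrb1c, Klra4, Klra7, Klra8 and Klra9 also had 0 UMIs in the 106 cells. The other 6 genes of the 12 held the list's 251 UMIs, in 33 of 106 cells, with 92 of Fcer1g, 79 of Gzma, 62 of Tyrobp, 9 of Prf1, 8 of Eomes and 1 of Klre1. Fcer1g and Tyrobp encode signalling adaptors that myeloid cells also make, and Gzma, Prf1 and Eomes are made by cytotoxic T cells as well. The natural killer list was at 972 CPM, against 922 CPM in CD8-zero T cells, a ratio of 1.05 (0.895 to 1.24). Without the mixed barcodes defined in the next paragraph this ratio was 7.41 (4.70 to 12.1), with Gzma at 79 UMIs against 1 and Fcer1g at 3 against 11. Foxp3, the regulator of regulatory T cells, had 0 UMIs against 8 in CD8-zero T cells.

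Some barcodes carried markers of other cell types. A barcode was called mixed when it held at least 5 UMIs of Cd74, H2-Aa, H2-Ab1 and H2-Eb1, at least 3 of Lyz2, at least 3 of Col1a1, Col1a2, Col3a1 and Dcn, or at least 5 of S100a8, S100a9, Il1b, Il1rn and Csf3r, a rule set after the data were seen. This took 16 of 106 Smad3-KO CD8 T cells with 28.3% of their UMIs, 25 of 267 CD8-zero T cells with 19.0%, and 8 of 18 Smad3-WT CD8 T cells with 61.4%. Mixed Smad3-KO CD8 barcodes held a median of 4359.5 UMIs and the others 1701.5. Of the B cell list, 1869 UMIs of 8 of 10 genes lay in the 106 cells, 59.2% of them in 3 cells, with Cd79a and Ms4a1 at 0 by the rule. The dendritic cell list gave 1166 UMIs of 8 of 9 genes, with Siglech at 0, the macrophage list 255 of all 10, the neutrophil list 260 of all 10, and the fibroblast list 50 of all 5, of which 88.0% lay in 3 cells. Per cell these lists ranged from 0 to 535, 350, 35, 61 and 42 UMIs in the order given. The carcinoma list gave 3 UMIs, with Krt8, Krt18 and Rhox5 at 0. No doublet caller was run, and a gene's ratio or a list's summed ratio in the 2 comparisons below is given also without the mixed barcodes where they moved it by over 1.5 times.

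V segments of the T cell receptor were not among the genes of the rule, but they lie on the same transcripts as the constant regions that it counted. At full depth, a V segment of the β chain (Trbv) was found in 77 of 106 Smad3-KO CD8 T cells (72.6%, 63.1% to 80.9%) and in 188 of 267 CD8-zero T cells (70.4%, 64.5% to 75.8%). In the same library it was found in 1 of 465 B cells and in 0 of 537 neutrophils. Those cells were chosen to hold no UMI of the CD3 and constant genes, so their low shares were largely set in advance. Of 35 Trbv genes in the files, 19 were seen in the CD8 T cells, 64 cells held 1 of them and 13 held at least 2. V segments of the α chain (Trav) were found in 54 of 106 cells (50.9%, 41.0% to 60.8%), with 36 of 128 genes seen. In the Smad3-WT library 17 of 18 CD8 T cells held a Trbv gene, and 13 Trbv genes were seen.

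No single Trbv gene was found in more than 11 of the 106 cells. Trbv12-2 was found in 11 (10.4%, 5.30% to 17.8%) and in 13 of 267 CD8-zero T cells (4.87%, 2.62% to 8.18%). Trbv13-2 was found in 10 (9.43%, 4.62% to 16.7%) and 35 (13.1%, 9.30% to 17.8%). Trbv19 was found in 9 and 13 cells, Trbv1 in 8 and 14, and Trbv13-1 in 8 and 17. Intervals of the 2 sets overlapped for each of these genes, at full depth, where the medians were 1846.5 and 1289 UMIs per cell. Trav12-2 led the α chain with 8 of 106 cells (7.55%, 3.31% to 14.3%) against 9 of 267 (3.37%, 1.55% to 6.30%).

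The 30 bases at the 3′ end of 4 of these Trbv transcripts are shown because this stretch joins the D and J segments and opens the part of the receptor that meets the peptide. Each runs 5′ to 3′ on the strand of its gene, as the GENCODE transcripts of build GRCm38 give it, with the codon of the conserved cysteine in capitals. The 4 genes lie on the plus strand, Trbv12-2 at chr6:41118851-41119364, Trbv13-2 at chr6:41121396-41121832, Trbv19 at chr6:41178375-41179048 and Trbv13-1 at chr6:41116007-41116468.
Trbv12-2: tctgccgtgtacttcTGTgccagctctctc
Trbv13-2: catcagtgtacttcTGTgccagcggtgatg
Trbv19: tggccgtttttctcTGTgccagcagtatag
Trbv13-1: catctttgtacttcTGTgccagcagtgatg
Over the shorter transcript, Trbv12-2 was 88.3% identical to Trbv12-1, Trbv13-2 was 90.6% identical to Trbv13-3, and Trbv13-1 was 86.5% identical to Trbv13-2, so the split of reads within these pairs is uncertain. The nearest segment to Trbv19 was Trbv13-3, at 52.6%.

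**Figure D1:**
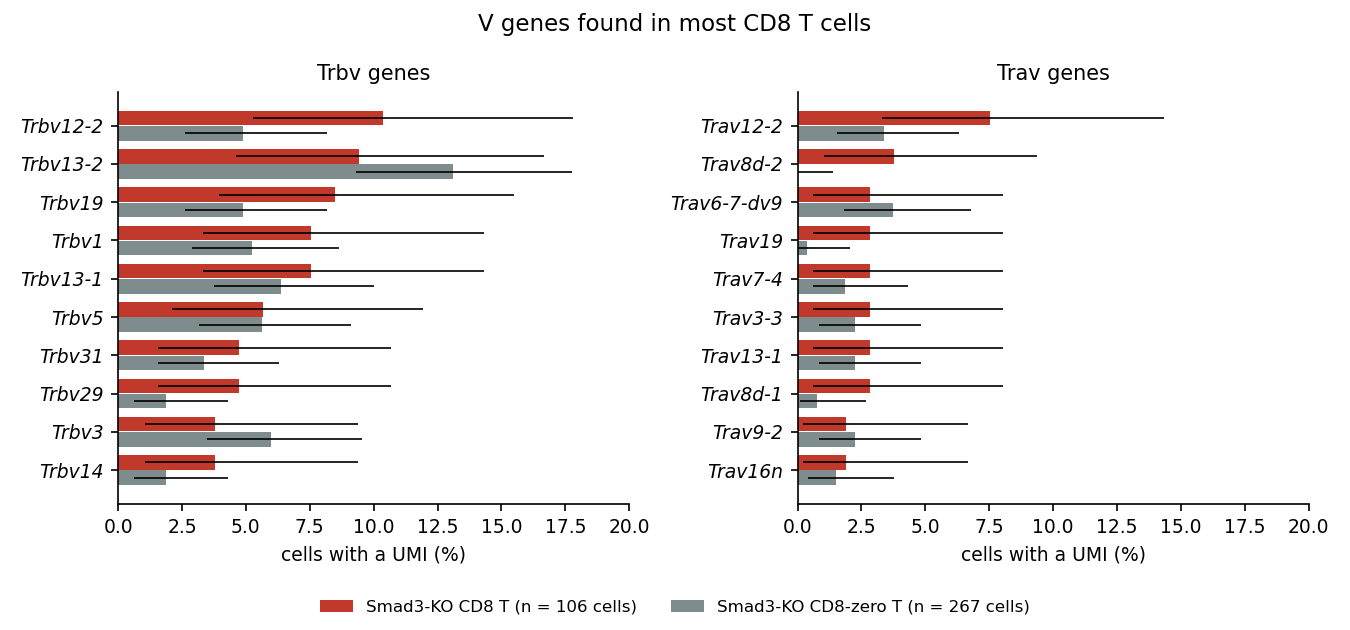
Share of cells (%) at full depth with at least 1 UMI of the 10 Trbv and 10 Trav genes found in most Smad3-KO CD8 T cells, for these 106 cells and the 267 CD8-zero T cells of the same library, with exact 95% intervals as bars. No Trbv gene exceeded 10.4% of the CD8 T cells, and Trbv13-2 reached 13.1% of the CD8-zero T cells.

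The comparison of CD8 T with CD8-zero T cells of the Smad3-KO library asks what else differed when only the coreceptor UMIs set the cells apart. Of the 106 CD8 T cells 31 rested on 1 CD8 UMI, so CD8 T cells with no captured CD8 UMI may lie in the CD8-zero set. Their number was not tested. Counts of a gene were added up within each set of cells and expressed as CPM, and a ratio is the CPM of CD8 T cells over that of CD8-zero T cells. Of 1733 genes with at least 50 UMIs in the 2 sets, 25 (1.44%) were higher by 2-fold or more and 51 (2.94%) were lower by 2-fold or more. V segments were kept in this count, and Trbv13-2, Trbv15, Trbv16 and Trbv17 were among the 51 lower genes. With the mixed barcodes left out, 20 genes were higher and 39 lower among 1254, and 9 genes were higher both ways, which is 36.0% of the 25 and 45.0% of the 20. For the lower genes 24 were shared, 47.1% of the 51 and 61.5% of the 39.

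Genes of cytotoxic granules and of killer cell receptors were higher in the CD8 T cells. Nkg7 had 131 UMIs in 55 of 106 CD8 T cells and 44 UMIs in 20 of 267 CD8-zero T cells, or 507 CPM (424 to 602) and 107 CPM (77.9 to 144), a ratio of 4.73 (3.34 to 6.81). It was found in 51.9% of CD8 T cells and, after thinning, in 23.6%, against 7.49% and 3.37% of CD8-zero T cells, 0.860% of B cells and 0.186% of neutrophils. Nkg7 was thus well above the share in cells that should lack it. Ctsw, cathepsin W of cytotoxic lymphocytes, had 49 UMIs in 31 cells against 16 in 13, a ratio of 4.86 (2.72 to 9.16). Klrd1, the CD94 chain that pairs with NKG2 receptors, had 54 UMIs in 31 cells against 19 in 10, a ratio of 4.51 (2.63 to 8.06). These 3 ratios were 5.93, 6.35 and 8.98 without the mixed barcodes.

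The chemokine Ccl5 had 522 UMIs in 35 CD8 T cells and 251 in 21 CD8-zero T cells, or 2021 and 612 CPM, a ratio of 3.30 (2.84 to 3.86), with 30.1% of the CD8 T cell UMIs in 1 cell. Ly6c2, a surface protein that memory CD8 T cells carry and that myeloid cells make as well, had 158 UMIs in 38 cells against 77 in 16, a ratio of 3.26 (2.47 to 4.34). At full depth, which was greatest in the CD8 T cells, Ly6c2 was also found in 16.8% of neutrophils and 6.45% of B cells, beside 35.8% of CD8 T cells and 5.99% of CD8-zero T cells. Dnajc15, a mitochondrial cochaperone, had 69 UMIs in 45 cells against 33 in 26, a ratio of 3.32 (2.16 to 5.19).

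The start regions of Nkg7 and Ly6c2 are shown because both genes were among the 15 highest ratios, and Runx and T-box factors are known regulators of CD8 T cells. The windows hold 250 bases before and 50 after the gene's start, from RefSeq on GRCm38.p6, 5′ to 3′ on the strand of the gene, with matches to TGTGGT (Runx) or AGGTGTGA (T-box) on either strand in capitals. Nkg7 is on the plus strand at chr7:43436888-43437187 and Ly6c2 on the minus strand at chr15:75111922-75112221.
Nkg7: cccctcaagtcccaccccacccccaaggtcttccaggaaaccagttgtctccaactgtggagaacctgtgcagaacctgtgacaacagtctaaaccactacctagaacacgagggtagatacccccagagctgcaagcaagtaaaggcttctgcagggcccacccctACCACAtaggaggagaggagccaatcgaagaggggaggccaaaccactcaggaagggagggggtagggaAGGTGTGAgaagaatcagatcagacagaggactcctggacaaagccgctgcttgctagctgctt
Ly6c2: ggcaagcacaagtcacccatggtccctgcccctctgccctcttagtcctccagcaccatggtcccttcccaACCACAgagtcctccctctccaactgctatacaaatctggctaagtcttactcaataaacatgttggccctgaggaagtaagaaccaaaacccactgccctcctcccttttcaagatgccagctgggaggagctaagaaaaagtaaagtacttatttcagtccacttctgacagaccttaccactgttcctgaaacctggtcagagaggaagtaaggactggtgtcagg
The Nkg7 window holds 1 match of each motif, which do not overlap, and the Ly6c2 window holds 1 match to TGTGGT and 0 to AGGTGTGA. The window of Cd8a, a gene of the rule, was also searched and holds 0 matches to either motif. Of 32851 windows of this length, 16.8% hold TGTGGT and 1.28% hold AGGTGTGA. A match is a description of the letters and shows no binding.

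Of the 15 genes with the highest ratios, 9 had over 50% of their CD8 T cell UMIs in the mixed barcodes, and their ratios changed without them. Fscn1, an actin bundling protein of mature dendritic cells, had 52 UMIs in 6 CD8 T cells and 2 UMIs in 1 CD8-zero T cell, a ratio of 41.3 (10.9 to 350), and 40 of the 52 UMIs lay in mixed barcodes, outside which the counts were 12 and 0. The class II genes H2-Aa, Cd74 and H2-Ab1 had ratios of 5.35, 4.05 and 3.12. Without mixed barcodes those of H2-Aa and Cd74 were 1.5 and 0.431, and H2-Ab1 had 0 and 2 UMIs. H2-Aa, Cd74 and H2-Ab1 help define mixed barcodes, so their UMIs lie there by construction and the change in their ratios shows nothing further. The others were Cst3 at 4.61, Ctsh at 3.92, Tmem176b at 3.87, H2-DMb2 at 2.93 and Lst1 at 2.59. Without mixed barcodes Cst3 was at 1.54, Tmem176b at 8.98 and Lst1 at 4.04, Ctsh had 2 and 0 UMIs, and H2-DMb2 had 0 in both sets. Of the CD8 T and CD8-zero T cell UMIs, 87.2% and 93.8% of Tmem176b lay in mixed barcodes. For Lst1 these shares were 71.0% and 78.9%, and for H2-Aa 99.4% and 97.4%. Their ratios without mixed barcodes thus rest on few UMIs. These genes are known from antigen-presenting and myeloid cells, and the part of such cells in the ratios was not tested.

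**Figure D2:**
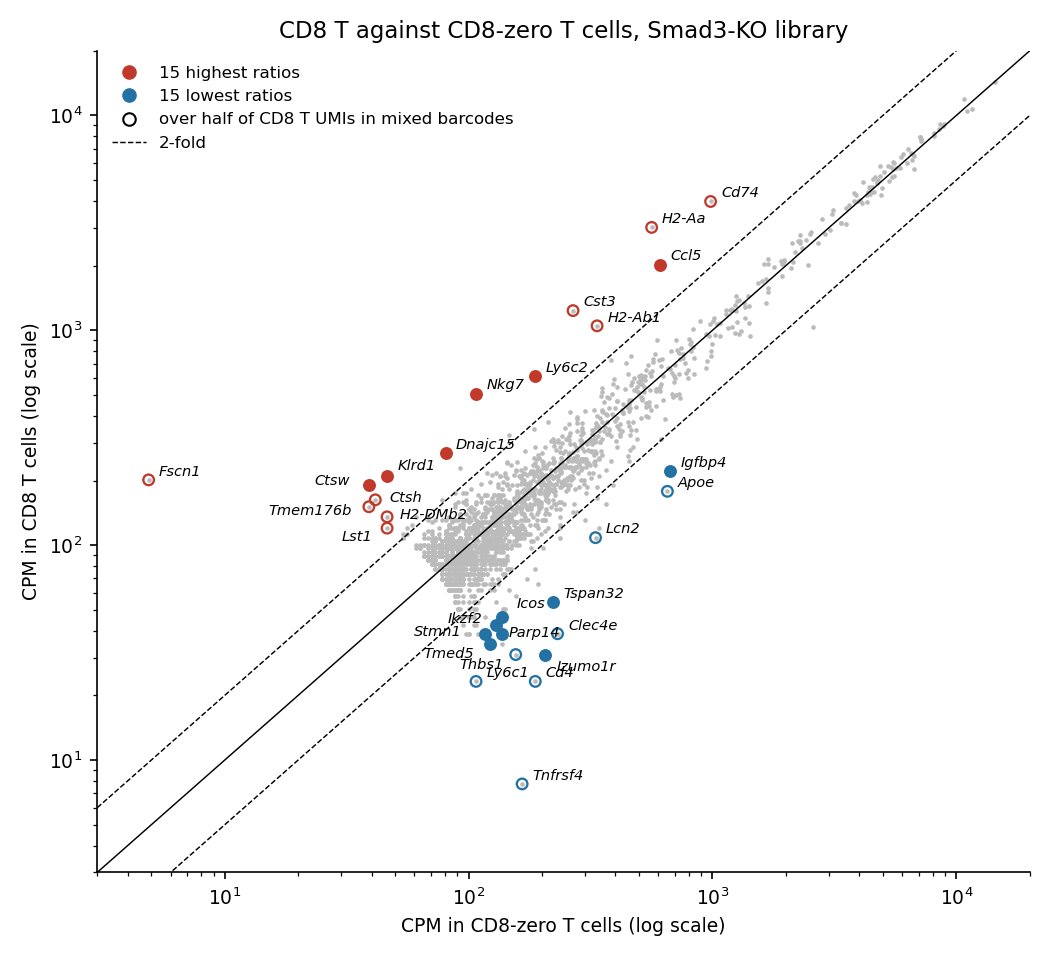
CPM of each gene with at least 50 UMIs in CD8 T cells (y axis) against CD8-zero T cells (x axis) of the Smad3-KO library, both on log scales, with lines at ratios of 2, 1 and 0.5. Named are the 15 highest and 15 lowest ratios with V segments left out, open where over 50% of the CD8 T cell UMIs lay in mixed barcodes, which holds for 9 of the 15 highest, and Nkg7, Ctsw and Klrd1 are filled.

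Genes of helper and regulatory T cells were lower in the CD8 T cells. Of 9 members of that list with at least 20 UMIs, 9 were lower by 2-fold or more, beside 6.55% of all 4306 genes at that depth, and their median ratio was 0.194 where that of all genes was 0.943. CD4 T cells fall in the CD8-zero set, since the CD8 UMIs divided the sets, but 63 of its 267 cells held a Cd4 UMI, and the rest were not typed. Cd4 had 6 UMIs against 77, a ratio of 0.124 (0.0441 to 0.282), or 0.0520 without mixed barcodes. Tnfrsf4, the receptor OX40, had 2 UMIs in 2 cells against 68 in 23, a ratio of 0.0467 (0.00554 to 0.175), and 0 against 67 without mixed barcodes. Izumo1r, the folate receptor of regulatory T cells, had 8 UMIs against 84, a ratio of 0.151 (0.0632 to 0.312), and Ikzf2, the factor Helios, had 10 against 56, a ratio of 0.284 (0.129 to 0.561). Cd40lg, which helper cells use to activate B cells, had 1 UMI against 42, a ratio of 0.0378 (0.000935 to 0.223). With V segments left out, the remaining lowest ratios were Ly6c1 at 0.217, Tspan32 at 0.244, Tmed5 at 0.286, Igfbp4 at 0.329, Parp14 at 0.330, Stmn1 at 0.331 and Icos at 0.340, and the myeloid genes Clec4e at 0.167, Thbs1 at 0.199, Apoe at 0.273 and Lcn2 at 0.327. Of the CD8-zero T cell UMIs of those 4 myeloid genes, from 83.1% (Lcn2) to 95.1% (Apoe) lay in mixed barcodes. Without these barcodes Clec4e was at 0.449, Apoe at 0.690, Lcn2 at 0.546, Stmn1 at 0.528 and Ly6c1 at 0.0438, and Thbs1 had 0 and 8 UMIs.

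The cytotoxic list was higher as a sum. Of its 22 genes, 14 had at least 20 UMIs, and 7 of them were higher by 2-fold or more, beside 3.41% of all genes, while 1 was lower, beside 6.55%. Their median ratio was 1.94. The list summed to 5080 CPM (4809 to 5363) in CD8 T cells and 3021 CPM (2855 to 3194) in CD8-zero T cells, a ratio of 1.68 (1.55 to 1.82), or 2.86 (2.56 to 3.19) without mixed barcodes. Without Ccl5 and Gzma together the ratio was 1.26. Gzma, granzyme A, had 79 UMIs in 2 of the 106 cells and 89 in 2 of the 267, a ratio of 1.41 (1.03 to 1.93). Of the 89 UMIs 88 lay in 1 cell, and without mixed barcodes the counts were 79 and 1, a ratio of 142 (24.7 to 5672).

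Granzyme UMIs lay in few cells. Gzmb, the granzyme that cleaves caspases in target cells, had 34 UMIs in 7 of 106 CD8 T cells and 7 UMIs in 4 of 267 CD8-zero T cells, a ratio of 7.71 (3.37 to 20.6), and 0 UMIs in B cells and neutrophils. Gzmk had 7 UMIs in 4 cells against 1, a ratio of 11.1 (1.43 to 501), and Gzmm had 12 in 6 cells against 1, a ratio of 19.1 (2.82 to 815). Prf1, the pore-forming perforin, had 9 UMIs in 9 cells against 8 in 8, a ratio of 1.79 (0.612 to 5.32). Ifng, the cytokine interferon γ, had 0 UMIs in the CD8 T cells and 2 in the CD8-zero T cells. Klrc1, the NKG2A chain, had 26 UMIs in 11 cells against 18 in 4, a ratio of 2.29 (1.21 to 4.44), or 4.79 without mixed barcodes, and Cst7, an inhibitor of granule cathepsins, had 29 in 24 cells against 23 in 18, a ratio of 2.0 (1.12 to 3.62). The chemokine gene Ccl3 was the lower member, at 0.495 (0.343 to 0.701), but 1.80 without mixed barcodes.

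Naive and central memory genes were present in the CD8 T cells of the Smad3-KO library at levels near or below those of CD8-zero T cells. The 16 genes summed to 3291 CPM (3074 to 3520) and 4476 CPM (4274 to 4686), a ratio of 0.735 (0.677 to 0.798). Of the 15 with at least 20 UMIs, 1 was higher by 2-fold or more, beside 3.41% of all genes, and 2 were lower, beside 6.55%, and their median ratio was 0.781. Lef1 had 81 UMIs in 51 of 106 cells against 253 in 148 of 267, a ratio of 0.508 (0.391 to 0.655). Among other cells, Lef1 was found in 1.08% of B cells and 0% of neutrophils.

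Ccr7 had 40 UMIs in 31 cells, at a ratio of 0.572 (0.388 to 0.828), and Tcf7 had 47 in 30 cells, at 0.666 (0.464 to 0.945). Klf2, which drives S1pr1, had 83 UMIs in 44 cells, at 0.766 (0.583 to 1.0), and the interleukin 7 receptor gene Il7r had 59 in 35 cells, at 0.781 (0.562 to 1.08). Dapl1, a gene known from naive CD8 T cells, was the higher member, with 59 UMIs in 31 cells against 38 in 29, a ratio of 2.47 (1.61 to 3.81). Igfbp4, which binds insulin-like growth factors, had 57 UMIs in 27 cells against 275 in 106 cells, a ratio of 0.329 (0.243 to 0.439), and Bach2, a repressor of effector genes, had 7 against 32, a ratio of 0.347 (0.129 to 0.801). Of the 15 naive or memory genes with at least 20 UMIs, 12 had a ratio below 1 and 3 above, where the median ratio of all genes was 0.943. Most but not all of these genes were thus lower in the CD8 T cells.

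**Figure D3:**
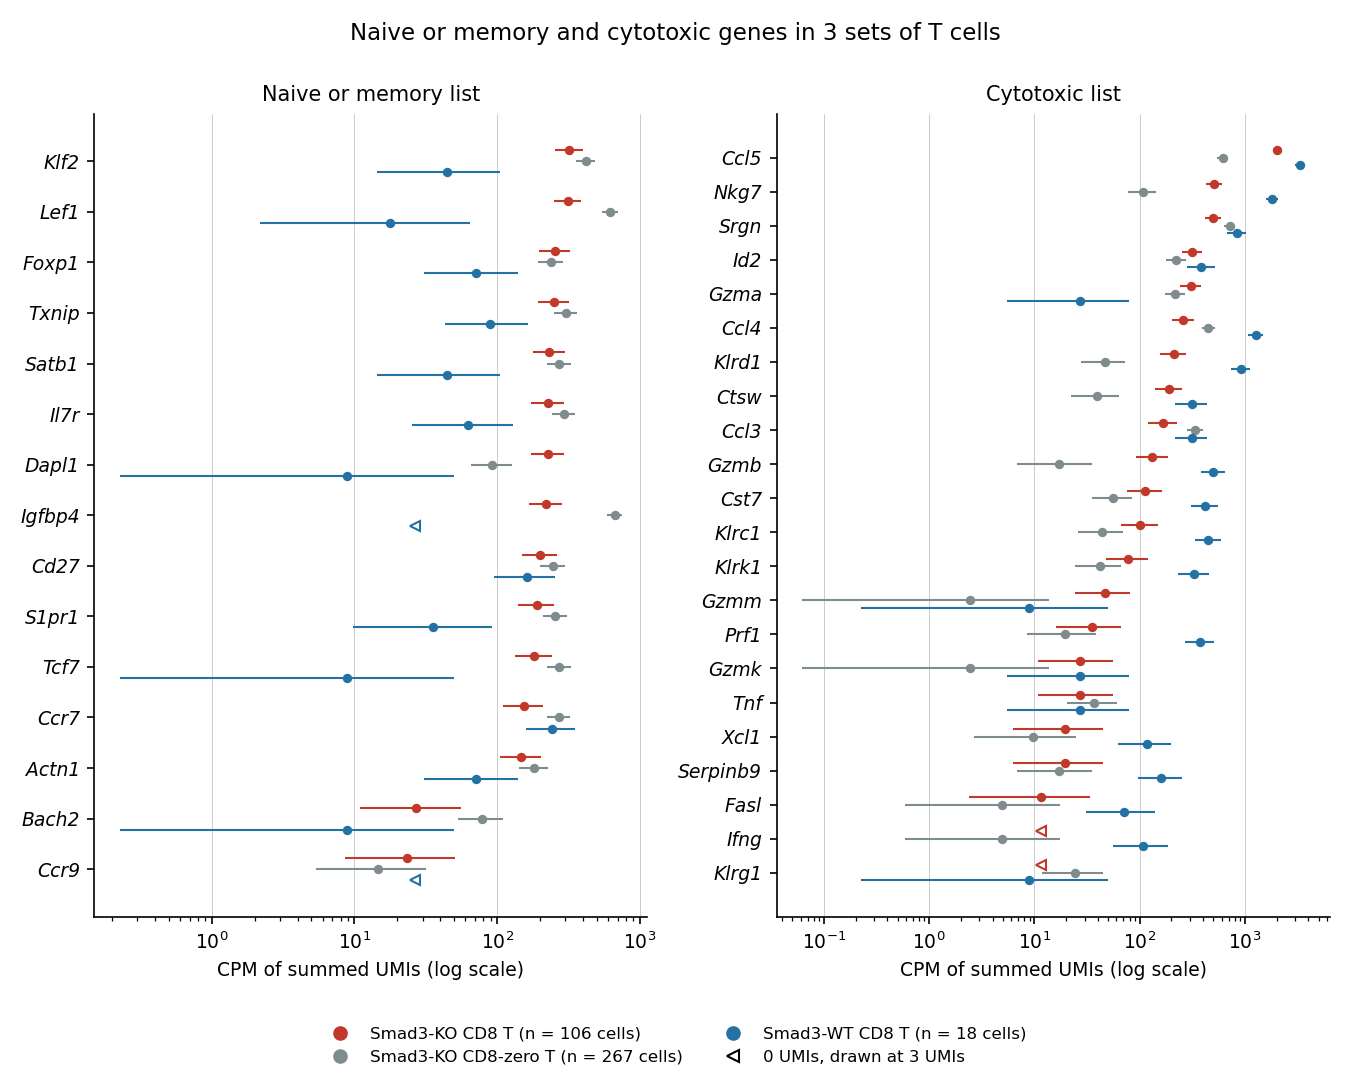
CPM of summed UMIs (log scale) with exact 95% Poisson intervals for 15 genes of the naive or memory list and the 22 of the cytotoxic list, in Smad3-KO CD8 T, Smad3-KO CD8-zero T and Smad3-WT CD8 T cells; open triangles mark 0 UMIs. Nkg7 was at 507, 107 and 1803 CPM and Lef1 at 314, 617 and 17.9 CPM in the 3 sets.

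The 2 programs were counted in the same cells. Cells with a UMI of Ccr7, Lef1, S1pr1 or Klf2 were crossed with cells with a UMI of Gzma, Gzmb, Gzmk, Prf1, Nkg7 or Ccl5. Of the 106 Smad3-KO CD8 T cells, 54 held both kinds, 35 only the naive kind, 11 only the cytotoxic kind and 6 neither. A cytotoxic UMI was thus found in 65 (61.3%, 51.4% to 70.6%) and a naive UMI in 89 (84.0%, 75.6% to 90.4%). Among the 90 cells outside the mixed barcodes the 4 counts were 43, 32, 10 and 5.

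After thinning to 500 UMIs the counts were 11 both, 34 naive only, 28 cytotoxic only and 33 neither, so that 36.8% held a cytotoxic UMI and 42.5% a naive UMI. In CD8-zero T cells 41 of 267 held a cytotoxic UMI (15.4%, 11.3% to 20.2%), and 9.74% after thinning. The cytotoxic genes were found in 2.37% of B cells and 1.12% of neutrophils, or 0.860% and 0.559% after thinning. The naive genes were found in 55.3% of B cells and 42.8% of neutrophils, where Klf2 alone was found in 41.9% and 42.6%, so a naive UMI alone does not mark a naive T cell. Per 1000 UMIs, the cytotoxic set ranged from 0 to 46.3 among Smad3-KO CD8 T cells with a median of 0.497, and from 0 to 26 among CD8-zero T cells with a median of 0. The naive set ranged from 0 to 5.78 with a median of 0.960 in the former and from 0 to 10.5 with a median of 1.40 in the latter.

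**Figure D4:**
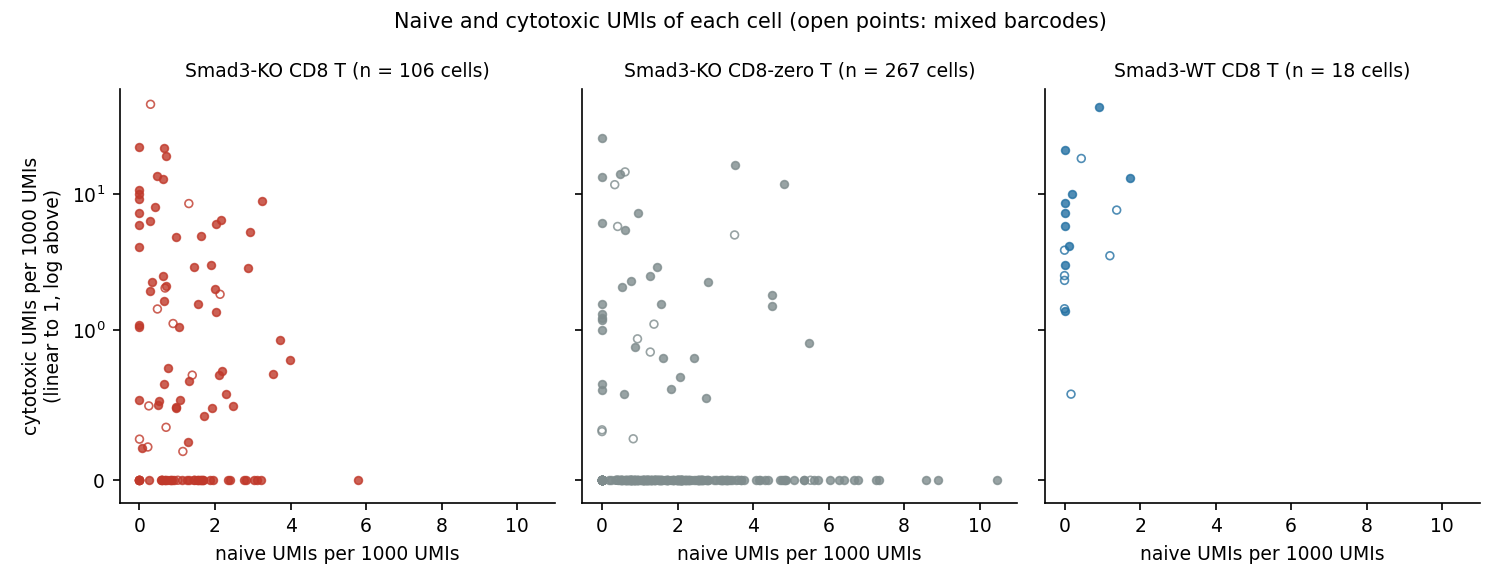
Cytotoxic UMIs per 1000 UMIs (y axis, linear to 1 and log above) against naive UMIs per 1000 UMIs (x axis) for each cell of the 3 sets, with mixed barcodes open. Of the Smad3-KO CD8 T cells 41 of 106 lie at 0 on the y axis, against 226 of 267 CD8-zero T cells and 0 of 18 Smad3-WT CD8 T cells.

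Ccl5 divided the Smad3-KO CD8 T cells further, in a split chosen after values were seen, and the 35 cells with a Ccl5 UMI were deeper than the 71 without, with medians of 2515 and 1560 UMIs. Ly6c2 was at 1181 CPM in cells with Ccl5 and 148 CPM in cells without, a ratio of 8.00 (5.03 to 13.3). Il2rb, the receptor chain for interleukins 2 and 15, was at 328 and 77.3 CPM, a ratio of 4.23 (2.12 to 9.18). The chemokine receptor gene Cxcr3 had 14 UMIs in 11 cells and 4 in 3 cells, a ratio of 4.29 (1.35 to 17.9). Gzmb, Gzmm and Gzmk had 34, 12 and 7 UMIs in the cells with Ccl5 and 0 in the cells without. The killer receptor genes Klrk1 and Klrc1 had 17 and 25 UMIs in the former and 3 and 1 in the latter.

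In the opposite direction Igfbp4 had 1 UMI in the cells with Ccl5 and 56 in those without, a ratio of 0.0219 (0.000545 to 0.127). Dapl1 was at 86.2 and 345 CPM, a ratio of 0.25 (0.113 to 0.50), and Lef1 at 190 and 415 CPM, a ratio of 0.457 (0.267 to 0.757). Tcf7 was at 155 and 204 CPM, a ratio of 0.761 (0.398 to 1.42), and Il7r at 241 and 218 CPM, a ratio of 1.11 (0.640 to 1.91), with intervals that held 1. Itgae, the CD103 integrin chain of resident T cells, had 0 UMIs in cells with Ccl5 and 8 UMIs in 7 of the cells without. Outside mixed barcodes, with 27 and 63 cells, Ly6c2 had a ratio of 9.51, Lef1 0.308 and Tcf7 0.652, and Igfbp4 had 0 and 52 UMIs. Over all barcodes Ccr7, S1pr1, Klf2 and Satb1 were at 1.35, 0.594, 0.694 and 0.762, and Ccl4 at 0.827, all with intervals that held 1. Outside mixed barcodes S1pr1 was at 0.372 (0.147 to 0.839), Klf2 at 0.511 (0.289 to 0.873) and Ccl4 at 8.69 (2.58 to 45.7). Cells with Ccl5 thus held more Ly6c2 and Il2rb and less Igfbp4 and Dapl1 on these counts, while over all barcodes the intervals of Tcf7, Il7r, Ccr7, S1pr1, Klf2 and Satb1 held 1.

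Genes of migration were near level as a sum, at a ratio of 0.954 (0.857 to 1.06), and those of residency were higher over all barcodes, at 1.62 (1.1 to 2.37). Without mixed barcodes the residency list was at 1.405 (0.882 to 2.22), with an interval that held 1. Of the 14 trafficking genes with at least 20 UMIs, 2 were higher than in CD8-zero T cells by 2-fold or more, beside 3.41% of all genes, and 0 lower, beside 6.55%, with a median ratio of 0.951. Only 2 of 8 residency genes had 20 UMIs, Cxcr6 and Rgs1, and Rgs1, a regulator of G protein signals, was at 1.19 (0.567 to 2.45). Cxcr3 had 18 UMIs in 14 cells against 7 in 6, a ratio of 4.08 (1.63 to 11.6), and Cxcr6, a chemokine receptor of tissue T cells, had 21 in 16 cells against 9 in 8, a ratio of 3.71 (1.63 to 9.19). Selplg, the selectin ligand PSGL-1, had 137 UMIs in 71 cells at a ratio of 1.21 (0.961 to 1.52), and Itgal, an integrin of T cell adhesion, had 41 in 30 at 0.972 (0.642 to 1.45). Itgae had 8 UMIs against 3, a ratio of 4.24 (1.02 to 24.8), and Zfp683, the factor Hobit, had 0 UMIs in both.

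Receptor signalling genes were somewhat lower as a sum in the CD8 T cells, at a ratio of 0.846 (0.782 to 0.915), with 12 of 16 genes below 1. Without mixed barcodes the sum was at 0.933 (0.858 to 1.01), and the median ratio of all genes was 0.943. Of 16 genes with at least 20 UMIs, 0 were higher by 2-fold or more, beside 3.41% of all genes, and 1 was lower, beside 6.55%, and the median ratio was 0.909. The lower gene was Cd5, an inhibitor of receptor signals, at 0.413 (0.239 to 0.682). The kinase gene Lck had 125 UMIs in 70 cells at a ratio of 0.660 (0.531 to 0.815), the adaptor gene Lat had 131 in 72 at 0.694 (0.560 to 0.854), and Thy1 had 189 in 74 at 1.29 (1.06 to 1.57). Of 13 costimulation and activation genes 7 were lower, beside 6.55% of all genes, and 0 higher, beside 3.41%, with a median ratio of 0.420. Cd28, the main costimulatory receptor, had 17 UMIs against 79, a ratio of 0.342 (0.190 to 0.582), and Tnfrsf9, the receptor 4-1BB, had 2 against 27, a ratio of 0.118 (0.0136 to 0.468), and 0 against 26 without mixed barcodes. Both inhibitory genes with at least 20 UMIs, Ctla4 and Tox, were lower, beside 6.55% of all genes, at 0.194 (0.0597 to 0.490) and 0.387 (0.173 to 0.786). Ctla4 also belongs to the list of helper and regulatory T cells. The other members of the 12 had fewer UMIs and were not all lower, with Cd160 at 3.18 (0.989 to 11.8) from 10 UMIs against 5. The 12 genes summed to a ratio of 0.686 (0.494 to 0.942).

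Among 18 transcription factor genes 4 were lower, beside 6.55% of all genes, and 0 higher, beside 3.41%, with a median ratio of 0.724. Runx3, which silences Cd4 in CD8 T cells, had 22 UMIs in 18 cells against 25 in 21, a ratio of 1.40 (0.751 to 2.58). Runx1 had 11 against 43, a ratio of 0.406 (0.189 to 0.801), and Gata3, a factor of helper cells, had 6 against 29, a ratio of 0.329 (0.112 to 0.805). Zbtb7b, which sets the CD4 lineage, had 3 UMIs against 15, a ratio of 0.318 (0.0589 to 1.12), or 0.138 without mixed barcodes. Eomes, a T-box factor of memory cells, had 8 UMIs in 7 cells against 2 in 2, a ratio of 6.35 (1.27 to 61.4), and Tbx21 had 3 against 5, a ratio of 0.953 (0.148 to 4.90), or 1.80 without mixed barcodes. The factors Runx3 and Tbx21 were therefore not distinguishable between the sets at this depth.

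Of 16 interferon-stimulated genes 1 was higher, Ly6c2, beside 3.41% of all genes, and 1 lower, beside 6.55%, with a median ratio of 0.801. The lower gene was Ifi27l2a, with 268 UMIs in 62 of 106 cells against 1061 in 191 of 267, or 1038 and 2587 CPM, a ratio of 0.401 (0.350 to 0.459), and 0.409 without mixed barcodes. Isg15, the ubiquitin-like protein, had 45 UMIs against 124, a ratio of 0.576 (0.400 to 0.817). The 11 immediate early genes held 0 past 2-fold either way, beside the same shares, with a median ratio of 0.920, and 9 class I and antigen processing genes also held 0, with a median of 0.941. B2m, the light chain of class I, was at 2126 and 1965 CPM.

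Genes of the TGF-β pathway, in which Smad3 carries the signal from the receptors to the nucleus, were sparse in the CD8 T cells. Of 8 genes with at least 20 UMIs 1 was higher than in CD8-zero T cells, beside 3.41% of all genes, and 2 lower, beside 6.55%, with a median ratio of 0.657. The ligand gene Tgfb1 had 32 UMIs in 26 cells against 73 in 57, a ratio of 0.696 (0.445 to 1.07), and the receptor gene Tgfbr2 had 35 in 32 against 97 in 80, a ratio of 0.573 (0.378 to 0.851). The receptor gene Tgfbr1 had 5 UMIs against 14. The inhibitor gene Smad7 had 17 against 39, a ratio of 0.692 (0.367 to 1.25), and Smurf2, a ligase that marks the receptor for decay, had 12 against 8, a ratio of 2.38 (0.895 to 6.72). Skil and Tgfbr3 were the lower genes, at 0.334 (0.0827 to 1.01) and 0.418 (0.122 to 1.16), with intervals that held 1, and Skil had 0 UMIs against 15 without mixed barcodes.

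The comparison of CD8 T cells between libraries sets 106 Smad3-KO cells beside 18 Smad3-WT cells, with the mixed barcodes at 16 and 8. A ratio is here the CPM in Smad3-KO over that in Smad3-WT cells. Of 2523 genes with at least 20 UMIs, 283 (11.2%) were higher and 376 (14.9%) lower by 2-fold or more in the Smad3-KO cells, with a median ratio of 0.888. Xist had 151 UMIs in 60 of 106 Smad3-KO cells and 0 UMIs in the 18 Smad3-WT cells, at least 21.8-fold higher against a floor of 3 UMIs over the set. The CD8 T cells therefore carried the same Xist difference as their libraries.

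Naive and central memory genes were higher in the Smad3-KO CD8 T cells. Of 14 such genes, 12 were higher by 2-fold or more, beside 11.2% of all genes, and 0 were lower, with a median ratio of 5.26. The list was at 3291 CPM (3074 to 3520) in Smad3-KO and 884 CPM in Smad3-WT cells, a ratio of 3.72 (3.02 to 4.63), and 4.98 without mixed barcodes. Lef1 had 81 UMIs in 51 of 106 cells against 2 in 2 of 18, a ratio of 17.6 (4.71 to 148). Tcf7 had 47 UMIs in 30 cells against 1, a ratio of 20.4 (3.48 to 822), or 9.10 without mixed barcodes, Klf2 had 83 in 44 against 5 in 3, a ratio of 7.2 (2.96 to 22.8), and Dapl1 had 59 in 31 against 1, a ratio of 25.6 (4.42 to 1028), and 55 against 0 without mixed barcodes. Igfbp4 had 57 UMIs in 27 cells against 0, at least 8.24-fold higher. Ccr7 was at 155 and 241 CPM, a ratio of 0.643 (0.385 to 1.09), with its 27 Smad3-WT UMIs in 3 cells. Without mixed barcodes, where 1 Smad3-WT UMI was left, it was at 6.30 (1.04 to 258).

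Cytotoxic genes were lower in the Smad3-KO CD8 T cells. Of 15 genes, 9 were lower by 2-fold or more, beside 14.9% of all genes, and 1 was higher, beside 11.2%, with a median ratio of 0.268. The list was at 5080 CPM in Smad3-KO and 11776 CPM in Smad3-WT cells, a ratio of 0.431 (0.399 to 0.466), or 0.274 (0.247 to 0.302) without mixed barcodes. Nkg7 had 131 UMIs in 55 of 106 cells against 202 in 18 of 18, or 507 and 1803 CPM, a ratio of 0.281 (0.224 to 0.352). Gzmb had 34 in 7 cells against 56 in 12, a ratio of 0.263 (0.167 to 0.410), and Prf1 had 9 in 9 against 42 in 10, a ratio of 0.0929 (0.0398 to 0.194). Ifng had 0 UMIs against 12 in 6 cells, at least 9.22-fold lower, and Klrd1 had 54 in 31 cells against 102 in 16, a ratio of 0.230 (0.162 to 0.322). Gzma was the higher gene, at 11.4 (3.77 to 56.6), from 2 Smad3-KO cells, and at 6.15 without mixed barcodes. After thinning, a cytotoxic UMI was found in 13 of 18 Smad3-WT cells (72.2%, 46.5% to 90.3%) and in 39 of 106 Smad3-KO cells (36.8%, 27.6% to 46.7%), and a naive UMI in 4 of 18 (22.2%, 6.41% to 47.6%) and in 42.5%.

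Inhibitory receptors and activation genes differed in the same direction as the cytotoxic genes. Of 6 inhibitory genes 6 were lower in the Smad3-KO cells, beside 14.9% of all genes, with a median ratio of 0.100. Pdcd1 had 5 UMIs in 3 cells against 36 in 12, a ratio of 0.0602 (0.0185 to 0.154), and Lag3 had 12 in 9 against 37 in 12, a ratio of 0.141 (0.0668 to 0.276). Tigit had 0 UMIs against 27 in 12 cells, at least 20.8-fold lower, and Havcr2, the receptor TIM-3, with fewer than 20 UMIs in all, had 3 against 13, a ratio of 0.100 (0.0183 to 0.364), and 0 against 10 without mixed barcodes. Rgs16, a regulator of G protein signals, had 1 against 23, a ratio of 0.0189 (0.000458 to 0.116). Of 10 costimulation and activation genes 7 were lower, beside 14.9% of all genes, and 0 higher, beside 11.2%, with a median ratio of 0.402. Among them Tnfrsf9, which T cell receptor signals induce, had 2 UMIs against 65 in 12 cells, a ratio of 0.0133 (0.00158 to 0.0502), and Tnfrsf4 had 2 against 28, a ratio of 0.0310 (0.00358 to 0.123). Without mixed barcodes Tnfrsf9 had 0 against 15 and Tnfrsf4 0 against 16. Among the activation genes, Il2rb and Il2rg were at 0.394 and 0.483.

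Proliferation genes were lower in the Smad3-KO cells over all barcodes, 11 of 11 by 2-fold or more, beside 14.9% of all genes, with a median ratio of 0.217. The list was at 2374 and 7615 CPM, a ratio of 0.312 (0.281 to 0.346), and 66.6% of its Smad3-WT UMIs lay in 3 cells. Ube2c, a ligase of mitosis, had 13 UMIs in 3 cells against 70 in 8, a ratio of 0.0805 (0.0409 to 0.147), and Mki67 had 3 in 2 against 13 in 5, a ratio of 0.100 (0.0183 to 0.364), or 0.0424 without mixed barcodes. Without mixed barcodes the list ratio was 0.425, and H2afz, Pclaf and Rrm2 turned to 1.39, 1.56 and 2.33. Of 9 genes of the list, without H2afz, Hmgb2, Tuba1b and Stmn1, at least 5 UMIs were found in 2 of 106 Smad3-KO cells (1.89%, 0.229% to 6.65%) and in 5 of 18 Smad3-WT cells (27.8%, 9.69% to 53.5%), of which 3 were mixed.

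Receptor signalling genes differed less between libraries, with 1 of 16 higher, beside 11.2% of all genes, and 2 lower, beside 14.9%, and a median ratio of 1.05. The 2 lower genes were the adaptor gene Sh2d2a, at 0.197 (0.118 to 0.322), and the kinase gene Zap70, at 0.482 (0.277 to 0.842), and the higher gene was Txk, a kinase of the Tec family, at 3.9 (0.935 to 34.7), and with 14 UMIs against 0 without mixed barcodes. Of 9 class I genes 1 was higher, Tapbp, and 1 lower, H2-T23, with a median of 0.730. Of 12 interferon genes 2 were higher and 2 lower, with a median of 0.946, beside the same shares of all genes for both lists.

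**Figure D5:**
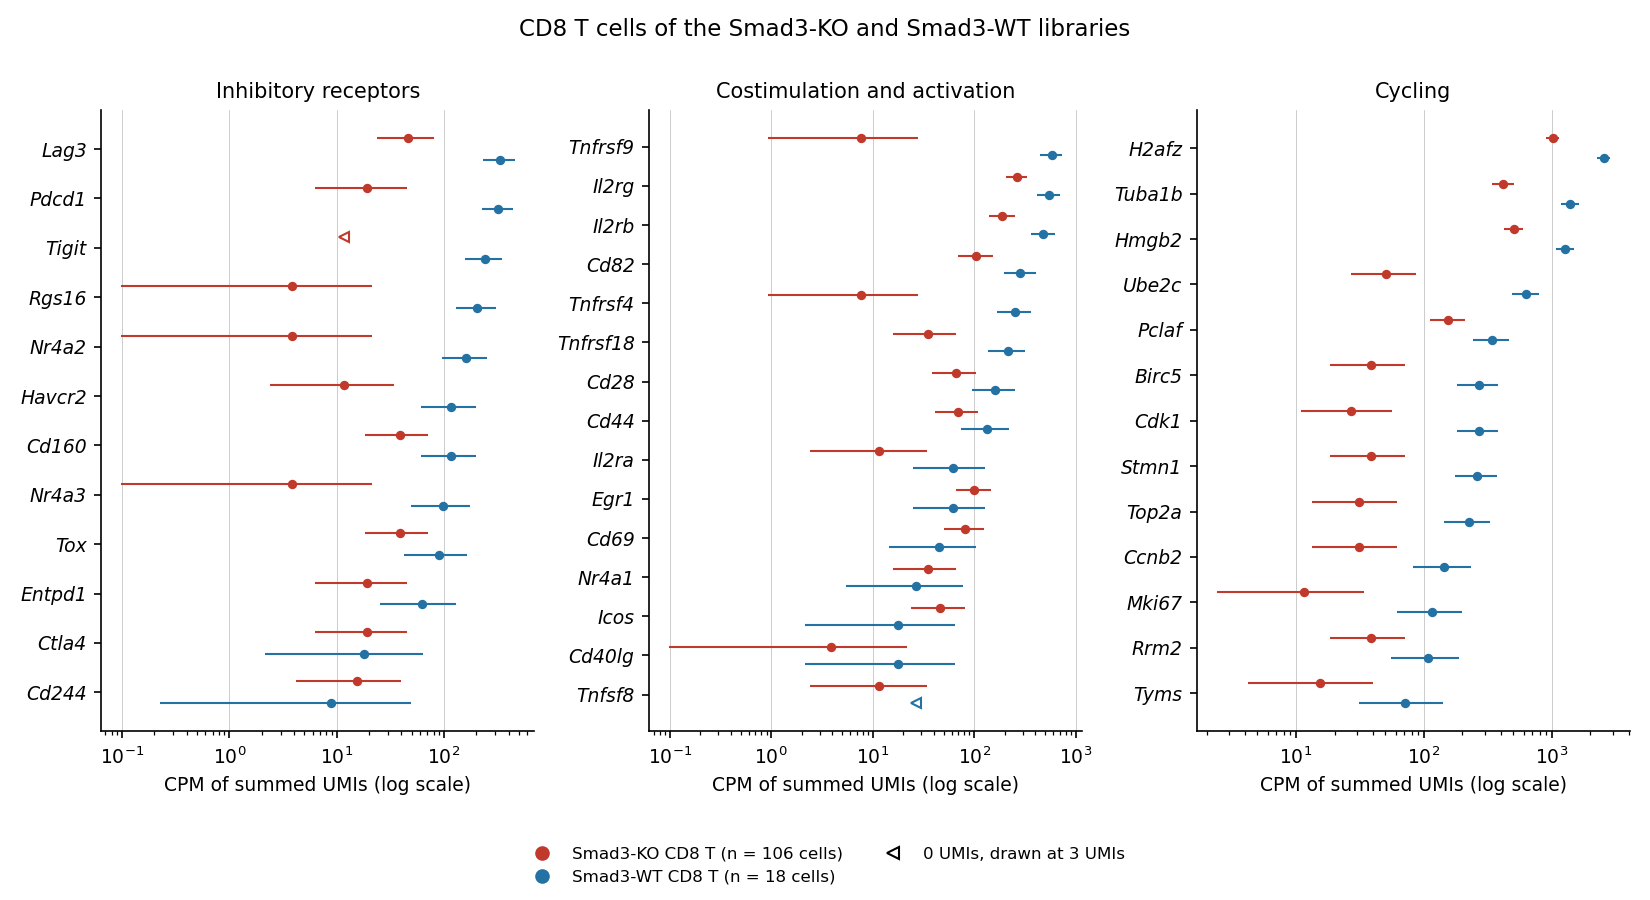
CPM of summed UMIs (log scale) with exact 95% Poisson intervals for inhibitory, costimulation and activation, and cycling genes in the 106 Smad3-KO and 18 Smad3-WT CD8 T cells; open triangles mark 0 UMIs. Pdcd1 was at 19.4 and 321 CPM, Tnfrsf9 at 7.74 and 580 CPM and Ube2c at 50.3 and 625 CPM, while H2afz, at 1015 and 2536 CPM, changed direction without mixed barcodes.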

How the data were processed

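The deposited matrix holds counts, the UMIs per gene and barcode that the authors made with Cell Ranger 3.0.2 on mm10, per the submitters' processing notes, with reads of 1 5′ library per genotype. The authors' deposited averages per gene and genotype are a signal, UMIs over the library's total times 1311, and told which barcodes belong to which genotype, with largest differences of 4.91e-09 (Smad3-KO) and 3.58e-08 (Smad3-WT). The log2 fold changes and p-values that the authors deposited compare the libraries and their clusters with cells as replicates, and were not used. The rest was computed with Python 3.11.15, numpy 2.4.6, scipy 1.17.1 and pandas 2.3.3.

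Cells and lists were chosen with earlier results of these data known. Intervals were exact Poisson, Clopper-Pearson or, for ratios, from the split of UMIs at the 95% level. Those of ratios were tested on simulated counts drawn independently, which is what the intervals assume. UMIs that pile up in single cells, as for Ccl5 and Gzma, were not simulated, so that spread is not covered. A gene was counted as past the fold at a ratio of 2 or more or 0.5 or less, without the genes of the rule. Named are the genes of the rule, the members of lists in order of UMIs or at 0, the 15 highest and 15 lowest ratios with at least 50 UMIs, the 10 most abundant genes and the 10 Trbv and 10 Trav genes in most cells. The 15 highest and 15 lowest ratios were ranked without V, D and J segments, which the counts of genes past the fold kept. Cells were thinned to 500 UMIs with seed 1, which left out 0 cells. Alternatives covered the limits of the rule, scaling, thinning, mean CPM per cell, the Cd4+ part of CD8-zero cells, and removal of cells with NK, myeloid or B genes. Genes near identical to others, such as V segments and class I genes, may share reads, and Trbv and Trav names follow the feature table. A gene of the set planned for the count of cells with naive UMIs is not reported here, and that count was made with the other 4 genes.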

Additional observations from a re-analysis of the deposited data

How the results depend on the processing

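The naive and cytotoxic list ratios kept their side of 1 under the alternatives run. Other lists were recomputed only without mixed barcodes, where some crossed 1. Between the sets the trafficking list went from 0.954 to 1.08, the macrophage list from 0.581 to 1.26 and the dendritic cell list from 3.81 to 0.760. The macrophage list holds Lyz2 and the dendritic cell list holds H2-Aa and H2-Ab1, which help define mixed barcodes, so the shifts of these lists follow in part from that definition. Between libraries the interferon list went from 0.913 to 1.32. Single genes were recomputed only without mixed barcodes, where the direction of some turned, among them Ccl3, Cd74 and Tbx21 between the sets and Ccr7, H2afz, Pclaf and Rrm2 between libraries. Cd74 itself helps define these barcodes. With at least 2 CD8 UMIs, CD8 T cells were 3.08% of Smad3-KO cells, and without mixed barcodes 0.256% of Smad3-WT cells. The cytotoxic ratio of CD8 T over CD8-zero T cells was 2.18 as the mean of the cells' CPM, 2.56 thinned, 1.88 with at least 2 CD8 UMIs, 2.91 against Cd4+ cells (63 of the CD8-zero cells), 2.91 in cells without 5 NK genes, 1.91 in cells without myeloid and B genes, 2.86 without mixed barcodes and 1.26 without Ccl5 and Gzma, and its 2 other alternatives gave 1.72 and 1.78. The naive ratio was 0.860 thinned and 0.653 against Cd4+ cells, and its 7 other alternatives gave 0.700 to 0.795. Higher and lower genes numbered 7 and 9 thinned, 147 and 282 at 20 UMIs and 2091 and 2604 at 1 UMI, where thinning and the limit on UMIs by construction set how many genes were counted. Against Cd4+ cells 24 genes were lower, and without NK gene cells 15 were higher. Median-of-ratios scaling shifted log2 ratios by -0.08. Between libraries, the cytotoxic ratio was 0.298 thinned, 0.304 as mean CPM, 0.478 with at least 2 CD8 UMIs, 0.274 without mixed barcodes and 0.327 without Ccl5 and Gzma, and the naive ratio was 4.98 without mixed barcodes. The cause of the other shifts was not tested. No paired analysis was possible because each genotype has 1 library. No library could be left out for the same reason. At 258255 UMIs over the Smad3-KO and 112009 over the Smad3-WT CD8 T cells, genes with few UMIs, such as Smad3, Tbx21 and Prdm1, could not be compared.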

Other observations

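The most abundant transcripts of the Smad3-KO CD8 T cells were Tmsb10 and Tmsb4x, which bind actin monomers, at 14269 and 11961 CPM, followed by the ribosomal protein genes Rps29, Rps24 and Rpl39. Against CD8-zero T cells the ratios of these 5 genes lay from 0.929 to 1.11. Between libraries the ribosomal protein genes Rps29, Rps28 and Rps27 had ratios of 2.90 (2.62 to 3.23), 2.75 (2.44 to 3.11) and 2.74 (2.45 to 3.06), and Gapdh, an enzyme of glycolysis, was at 964 CPM in Smad3-KO and 6169 CPM in Smad3-WT CD8 T cells, a ratio of 0.156 (0.135 to 0.181), or 0.124 without mixed barcodes. Gzmf, a granzyme, had 70 UMIs in 3 of the 18 Smad3-WT CD8 T cells, 55 of them in 1 cell and 0 outside mixed barcodes, and 0 UMIs in the 106 Smad3-KO cells. Nrgn, a calmodulin-binding protein, had 50 UMIs in 10 of the 18 cells of the Smad3-WT library and 3 in 1 of the 106. Rps28, Gapdh, Gzmf and Nrgn were chosen after their values were seen.

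Ighm, the constant region of immunoglobulin M, was found in 36 of 106 Smad3-KO CD8 T cells (34.0%, or 10.4% after thinning), with 51 UMIs, while the light chain gene Igkc had 1 UMI. In CD8-zero T cells Ighm was found in 22.8% (9.36% after thinning), with 79 UMIs beside 4 of Igkc. In B cells of that library 1168 UMIs of Ighm stood beside 4281 of Igkc, so that Ighm was 21.4% (20.4% to 22.5%) of both there and 98.1% (89.7% to 100%) in the CD8 T cells. Neutrophils held Ighm in 3.72% of cells, or 2.05% after thinning, with 20 UMIs and 0 of Igkc. In Smad3-WT CD8 T cells Ighm had 3 UMIs and Igkc 8. These values were looked up after the first of them was seen.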
